A study of Mus musculus with 20 samples.

Results

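The 9 genes of the Indian hedgehog pathway were followed in the mouse uterus on the evening before embryo attachment. They were chosen by name, as the ligands Ihh and Dhh, the receptor side Ptch1, Smo and Gas1, the inhibitor Hhip and the transcription factors Gli1, Gli2 and Gli3. All 9 were among the 45777 genes of the expression table, and all 9 were above 0 in every mouse, so that they were among the 18706 genes tested.

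Hedgehog ligands bind Patched, which then stops holding back Smoothened, and the signal passes through the primary cilium to the Gli transcription factors. In the mouse uterus before implantation, Ihh is made in the luminal and glandular epithelium under progesterone receptor control, and the stroma beneath it carries Ptch1, Smo and the Gli factors. Ptch1, Hhip and Gli1 are themselves transcribed in response to the signal, and the stromal factor Nr2f2 (COUP-TFII) lies downstream of Ihh.

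Wild-type B6D2F1 females aged 8 to 12 weeks were mated, and uterine polyA RNA was taken at 18:00 on day 3.5, with the morning of the plug as day 0.5. The control group had no treatment. The implantation failure (IF) group received RU486 (mifepristone, an antagonist of the progesterone and glucocorticoid receptors) at 3 mg/kg under the skin at 9:00 on day 3.5. The PBMC and PBMC-hCG groups received the same RU486 after peripheral blood mononuclear cells of other females had been placed in the uterus on day 1.5, cultured for 24 h without or with human chorionic gonadotropin (hCG, 5 IU/mL). Each group had 5 mice, 20 in all. The 3 groups given RU486 share that drug, and no mouse with intrauterine culture medium alone was analysed here, so that an effect of the cells cannot be told apart from one of the injection. Samples were uterine horns holding epithelium, stroma and muscle, and in such bulk RNA fewer cells of a type and less RNA per cell cannot be told apart.

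Levels are in TPM, which scales reads by transcript length and library total, and are given as mean ± SD with n = 5. Differences are on the log2(TPM + 0.1) scale with a standard error (SE), from limma fitted to all genes tested with Benjamini-Hochberg adjusted p, and a gene was called at an adjusted p under 0.05. Read depth was unknown. The library of control replicate 2 stood apart: its median correlation with its own group was 0.963, against 0.980 to 0.990 in the other 19 mice, and its summed level of 8 stromal markers was the lowest of all, at 5901 TPM. For the hedgehog pathway genes named above, calls that change without this library are given with and without it. For the other gene lists and the cell type markers, comparisons with control are given with all mice only. How far those comparisons rest on this library was not tested. No batch was named, and the epithelial, stromal and smooth muscle markers expected of a uterus were above 0 in every library.

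The bases upstream of the start of 3 members are shown. Ihh and Dhh are the ligands of the comparison. Gas1 separated the control and IF groups without overlap, as did Dhh and Gli2, the last of which is not shown. Such genes made up 12.8% of all. The bases are RefSeq sequence of GRCm38.p6, read 5′ to 3′ and cut where the annotated gene begins. Capitals mark the GC box GGGCGG or its reverse complement CCGCCC.
Ihh, chr1:74951673-74951922, minus strand: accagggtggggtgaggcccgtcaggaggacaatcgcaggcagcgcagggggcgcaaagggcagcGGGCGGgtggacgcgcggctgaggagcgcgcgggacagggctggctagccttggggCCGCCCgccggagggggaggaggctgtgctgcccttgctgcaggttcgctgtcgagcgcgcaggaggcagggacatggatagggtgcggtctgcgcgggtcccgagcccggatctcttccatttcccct
Dhh, chr15:98898563-98898790, minus strand: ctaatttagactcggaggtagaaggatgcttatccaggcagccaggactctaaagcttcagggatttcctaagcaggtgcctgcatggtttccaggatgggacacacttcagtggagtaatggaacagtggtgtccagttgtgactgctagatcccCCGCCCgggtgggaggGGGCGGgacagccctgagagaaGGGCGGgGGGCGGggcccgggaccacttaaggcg
Gas1, chr13:60177536-60177785, minus strand: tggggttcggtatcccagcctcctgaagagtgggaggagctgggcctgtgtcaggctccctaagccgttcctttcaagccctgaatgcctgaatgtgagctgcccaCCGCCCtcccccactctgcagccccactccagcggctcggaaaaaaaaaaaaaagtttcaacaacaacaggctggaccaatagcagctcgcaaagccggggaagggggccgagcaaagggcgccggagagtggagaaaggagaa

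Promoter windows of 250 bases before to 50 bases after the start were matched for 8 of the 9 members, all but Gli1. The Gli-binding letters GACCACCCA were found on neither strand of these 8 windows, and 0.253% of the 32851 windows of all genes held them. ACANNNTGT, a core of the steroid receptor response element, was likewise in 0 of 8, against 6.85% of all windows. A GC box was searched for after those motifs had given no match. It was present in the 250 bases before the start in 7 of the 8 members, against 32.7% of all windows. The 8 windows were 61.7 to 76.3% G and C, and the part of this in the GC box count was not tested. Those of Gli2 and Ptch1 lie inside the annotated genes. Dhh had 4 copies, Ihh, Hhip and Gli3 had 2 each, Gas1, Ptch1 and Gli2 had 1 each, and Smo had none. These matches describe the letters only.

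Against the control group, the IF group called 5 of the 9 genes. Dhh and Gli2 were higher, and Gas1, Hhip and Gli3 were lower. Of all genes tested, 21.9% were called in this comparison. PBMC against control called 2 of 9, with Gli2 higher and Hhip lower, beside 19.5% of all genes. PBMC-hCG against control called 4 of 9, with Gli2 and Ptch1 higher and Gas1 and Hhip lower, beside 31.8% of all genes. The median difference over the 9 genes was -0.01, 0.08 and -0.11, and over all genes 0.02, 0.05 and 0.08, in the same order. These 3 comparisons share the control mice. Without control replicate 2, they called 6, 4 and 4 of the 9 genes: Smo was added in IF, Gli3 and Smo in PBMC, and Gli3 took the place of Ptch1 in PBMC-hCG. Among the groups given RU486, none of the 9 genes passed the test: PBMC against IF called 0% of all genes (0 of 18706 by limma, with 1271 at an unadjusted p under 0.05), PBMC-hCG against IF called 13.6% and PBMC-hCG against PBMC called 0.0107%.

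**Figure D1:**
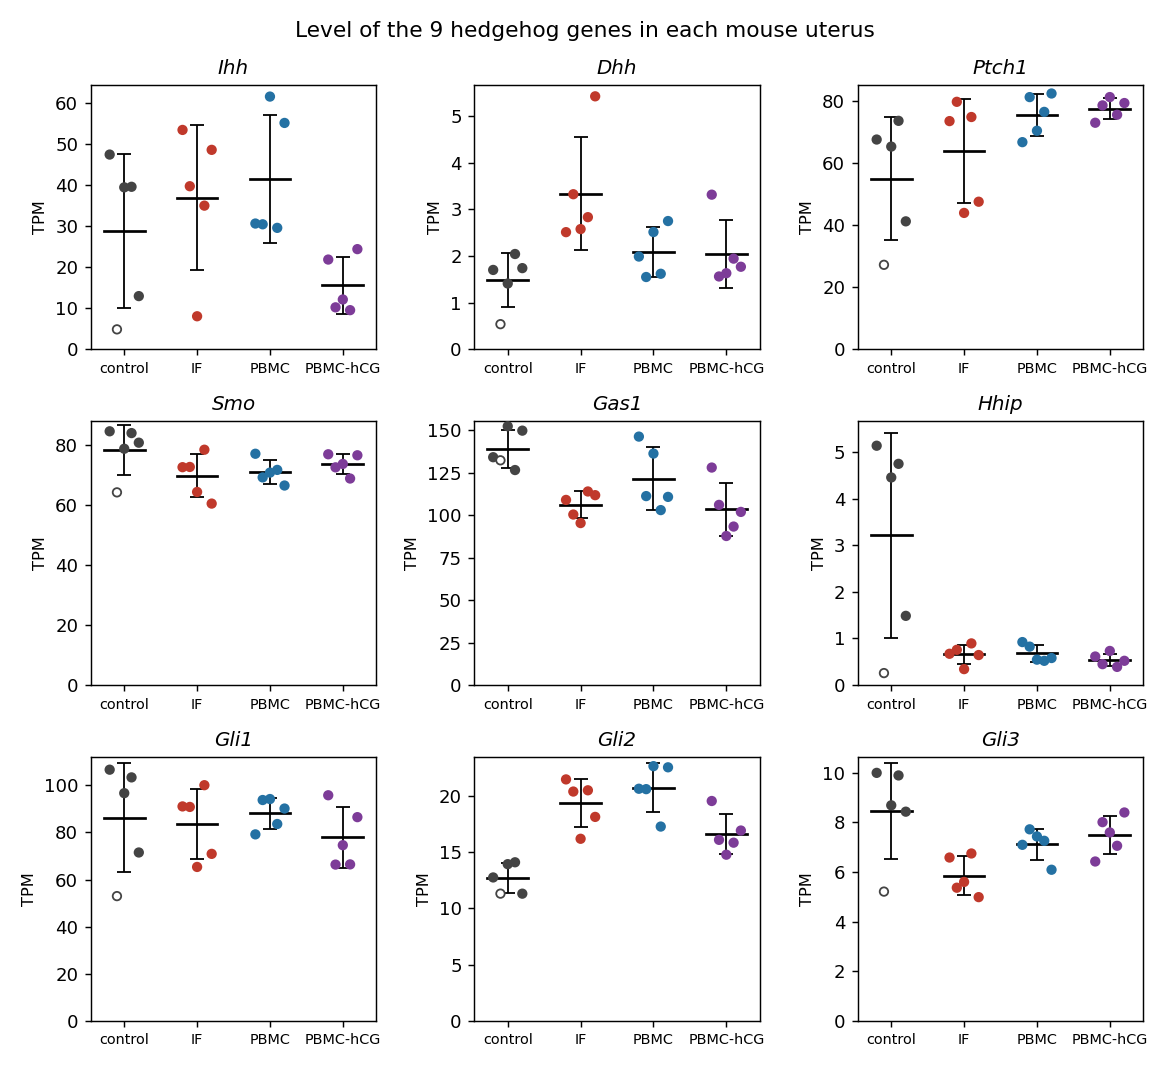
TPM of each of the 9 genes (vertical axes, from 0) in the 4 groups, 1 point a mouse, with the group mean (thick line) and SD (bar); the open circle is control replicate 2. Gli2 in the 5 control mice lies between 11.3 and 14.1 TPM, below all 15 mice given RU486, and Ihh in the PBMC-hCG mice lies between 9.50 and 24.4 TPM, below every PBMC mouse.

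Ihh, the main epithelial hedgehog ligand of this tissue (chromosome 1, 74945315-74951672, GRCm38.p6), varied widely within groups. Control replicates 1 to 5 had 47.4, 4.83, 39.4, 39.5 and 12.9 TPM, and the IF mice 53.4, 39.7, 8.02, 34.9 and 48.5 TPM. The PBMC mice had 30.6, 30.4, 61.5, 29.5 and 55.1 TPM, and the PBMC-hCG mice 21.8, 10.2, 12.1, 9.50 and 24.4 TPM. The control and IF mice thus covered nearly the same range, with low animals in both, whereas no PBMC-hCG mouse reached the lowest PBMC mouse.

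The means were 28.8 ± 18.7 TPM in control, 36.9 ± 17.7 in IF, 41.4 ± 15.6 in PBMC and 15.6 ± 6.97 in PBMC-hCG. In the order PBMC-hCG, control, IF, PBMC, no neighbouring pair differed by the limma test. IF was 0.52 above control (SE 0.57, 95% interval -0.68 to 1.73, adjusted p = 0.569), and without control replicate 2 the difference was -0.01. PBMC differed from control by 0.86 and PBMC-hCG by -0.58 (limma adjusted p = 0.327 and 0.473). Without control replicate 2 these differences were 0.33 and -1.11 (limma adjusted p = 0.681 and 0.0833). PBMC-hCG was below PBMC by -1.44 (SE 0.57, interval -2.64 to -0.23), with an adjusted p of 0.283 by limma. The values of these 2 groups did not overlap (two-sided exact permutation p = 0.00794, the smallest that 5 against 5 allows), as was so for 3.46% of all genes. Ihh also met the fold change of 2 with an unadjusted p under 0.05 used in the study, as did 0.893% of all genes, and no other member did in that comparison. PBMC-hCG against IF gave -1.10 (SE 0.57, limma adjusted p = 0.178), but -1.59 and a limma adjusted p of 0.0344 once IF replicate 3, the IF mouse with the least Ihh, was left out.

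Because Ihh is epithelial, it was also set against 8 epithelial markers (keratins, Cdh1, Epcam and claudins). Their sum ran from 805 to 1424 TPM in control, 1122 to 1426 in IF, 1159 to 1485 in PBMC and 1202 to 1566 in PBMC-hCG. Single markers went both ways between PBMC-hCG and PBMC, with Krt8, Krt18, Krt19 and Cldn3 at positive and Krt7, Cdh1, Epcam and Cldn7 at negative differences (0.43 to -0.29), none of them called. The log2 ratio of Ihh to these markers differed by -1.48 between PBMC-hCG and PBMC (-3.30 ± 0.76 against -1.82 ± 0.45, exact permutation p = 0.00794), and with adjustment over the 30 such tests p was 0.119.

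Dhh, the desert hedgehog ligand (chromosome 15, 98881615-98898562), was present at much lower levels. It was 1.70, 0.537, 1.41, 2.04 and 1.74 TPM in the control mice and 2.51, 3.32, 2.58, 2.83 and 5.42 TPM in the IF mice. Every IF mouse lay above every control mouse. PBMC mice ranged from 1.55 to 2.75 TPM and PBMC-hCG mice from 1.56 to 3.31 TPM, both overlapping control. The rise in IF was 1.17 (SE 0.30, limma adjusted p = 0.00884) and it was called under each alternative and without each single mouse. Without control replicate 2 it was 0.86 (limma adjusted p = 0.0138). Groups without overlap made up 12.8% of all genes in that comparison. PBMC and PBMC-hCG were 0.54 and 0.49 above control (SE 0.30 each), with limma adjusted p of 0.231 and 0.224. Over 5 tested Schwann cell markers the median difference from control was 0.007 in IF, 0.74 in PBMC and 0.59 in PBMC-hCG. The sum of all 6 listed was 47.5 to 86.6 TPM in control and 182 to 363 TPM in IF. It was 107 to 289 TPM in PBMC and 59.8 to 236 TPM in PBMC-hCG. Nearly all of this sum was Ngfr, at 42.4 to 81.3 TPM in control and 175 to 359 TPM in IF. The defining marker Sox10 was at 0.0783 to 0.612 TPM in control and 0.312 to 0.481 TPM in IF. In PBMC it was 0.563 to 0.903 TPM and in PBMC-hCG 0.391 to 0.984 TPM. Ngfr was the list's only call, higher in IF and PBMC than in control and lower in PBMC-hCG than in IF, and its part in the Dhh result was not tested. PBMC-hCG was -0.67 from IF (limma adjusted p = 0.119), and -0.86 with an adjusted p of 0.0489 without PBMC-hCG replicate 1.

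Ihh made up most of the ligand RNA in all groups. Its share of the summed Ihh and Dhh TPM was 93.3 ± 3.93% in control, 89.2 ± 7.80% in IF, 95.04 ± 0.788% in PBMC and 87.6 ± 3.68% in PBMC-hCG. The largest difference, PBMC-hCG against PBMC, was -7.45 percentage points (exact permutation p = 0.00794, adjusted over 30 tests p = 0.119). The third mammalian ligand, Shh, was listed at 0 TPM in every mouse.

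Ptch1, the Patched receptor (chromosome 13, 63508328-63573460), was 67.7, 27.2, 65.4, 73.7 and 41.3 TPM in control and 73.1, 78.7, 81.4, 75.7 and 79.5 TPM in PBMC-hCG. The PBMC-hCG mice were tightly grouped at 77.7 ± 3.28 TPM, whereas control spread over 55.1 ± 19.9 TPM and its highest mouse overlapped them. IF mice ranged from 44.0 to 79.9 TPM and PBMC mice from 66.8 to 82.6 TPM. In PBMC, Ptch1 was 0.54 above control (SE 0.22, limma adjusted p = 0.0913) and was not called. PBMC-hCG against PBMC gave 0.04 (limma adjusted p = 0.928). Ptch1 rose in PBMC-hCG against control by 0.59 (SE 0.22, limma adjusted p = 0.0477). That call was lost without control replicate 2 (0.36, adjusted p = 0.110), without control replicate 5, and without any 1 of the 5 PBMC-hCG mice. With the replicate number as a block its adjusted p was 0.0625, and the call was also lost with no filter on low values (0.0787), with median ratio scaling (0.0753), without the variance trend (0.0555) and with only the 2 groups in the fit (0.0898). Of 8 stromal markers, 4 were higher and 0 lower in PBMC-hCG than in control, beside 31.8% of all genes called. Their sum had a median of 10725 TPM in control (5901 to 11053, lowest in control replicate 2). In PBMC-hCG the median was 12054 TPM (11138 to 12946). Relative to those stromal markers Ptch1 differed by 0.19 on the log2 scale (exact permutation p = 0.325).

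Smo, the membrane transducer that Patched inhibits (chromosome 6, 29735497-29761366), was at similar levels in the 4 groups. Its means were 78.5 ± 8.31 TPM in control, 69.7 ± 7.20 in IF, 71.1 ± 3.91 in PBMC and 73.8 ± 3.30 in PBMC-hCG. No comparison was called. IF was -0.17 from control (interval -0.33 to -0.01, limma adjusted p = 0.123). Without control replicate 2, the lowest control mouse, that difference was -0.24 with an adjusted p of 0.0107, and PBMC against control was -0.21 with an adjusted p of 0.0263.

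Gas1, a cell surface co-receptor that binds hedgehog ligands (chromosome 13, 60174405-60177535), was 134, 132, 152, 127 and 150 TPM in control and 109, 100, 95.3, 114 and 112 TPM in IF. No IF mouse reached the lowest control mouse, and groups without overlap made up 12.8% of all genes in that comparison. PBMC-hCG mice had 128, 106, 87.7, 93.3 and 102 TPM, 4 of them below all controls, and PBMC mice spread over 103 to 146 TPM. Gas1 fell in IF by 0.39 (SE 0.10, limma adjusted p = 0.0106) and in PBMC-hCG by 0.44 (SE 0.10, limma adjusted p = 0.00374). In PBMC the difference from control was -0.20 (interval -0.42 to 0.01, limma adjusted p = 0.184). Both calls of Gas1 were kept without each single mouse.

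Hhip, the membrane-bound protein that sequesters hedgehog ligands (chromosome 8, 79965850-80058060), showed the widest fold differences of the 9 genes in the comparisons with control. In control it was 5.14, 0.256, 4.45, 4.75 and 1.48 TPM. Every one of the 15 mice given RU486 was below 1 TPM: 0.342 to 0.893 in IF, 0.520 to 0.922 in PBMC and 0.389 to 0.731 in PBMC-hCG. The other 4 control mice lay above all of these, and control replicate 2 lay below them.

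The differences from control were -1.65 in IF, -1.60 in PBMC and -1.87 in PBMC-hCG (SE 0.52 each), with limma adjusted p of 0.0300, 0.0381 and 0.0110. Two-sided exact permutation p values were 0.0952, 0.103 and 0.0556. Without control replicate 2 the differences widened to -2.32, -2.27 and -2.55, with limma adjusted p of 3.05e-05, 4.60e-05 and 1.02e-05. The IF call was lost when control replicate 1, 3 or 4 or IF replicate 3 or 5 was left out, and the PBMC call when control replicate 1, 3 or 4 or any of PBMC replicates 2 to 5 was left out. Limma adjusted p then ran up to 0.105. With only the 2 compared groups in the fit, the adjusted p was 0.133, 0.142 and 0.0557. With no filter on low values it was 0.0535 in IF and 0.0679 in PBMC, and with a pseudocount of 0.01 it was 0.05005 in PBMC, just past the threshold. In IF and PBMC, Hhip met the study's fold change criterion, as did 4.03% and 3.34% of all genes, and in PBMC-hCG, where 4.74% did.

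Hhip was also set against the ligand. Hhip was 10.8, 5.31, 11.3, 12.0 and 11.5% of the Ihh level in the control mice, 1.26 to 4.26% in IF, 0.886 to 3.01% in PBMC and 2.13 to 6.05% in PBMC-hCG. This ratio was taken after the values had been seen and was not tested. Control replicate 2, the mouse with the least Hhip, also had the least Ihh, and its ratio was the lowest of the control mice above every IF and PBMC mouse and overlapping PBMC-hCG, in which replicate 3 was higher. Relative to the stromal markers, Hhip differed from control by -1.98, -2.01 and -2.27 in IF, PBMC and PBMC-hCG (exact permutation p = 0.0397, 0.0317 and 0.0159, adjusted over 30 tests p = 0.143 for each).

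**Figure D2:**
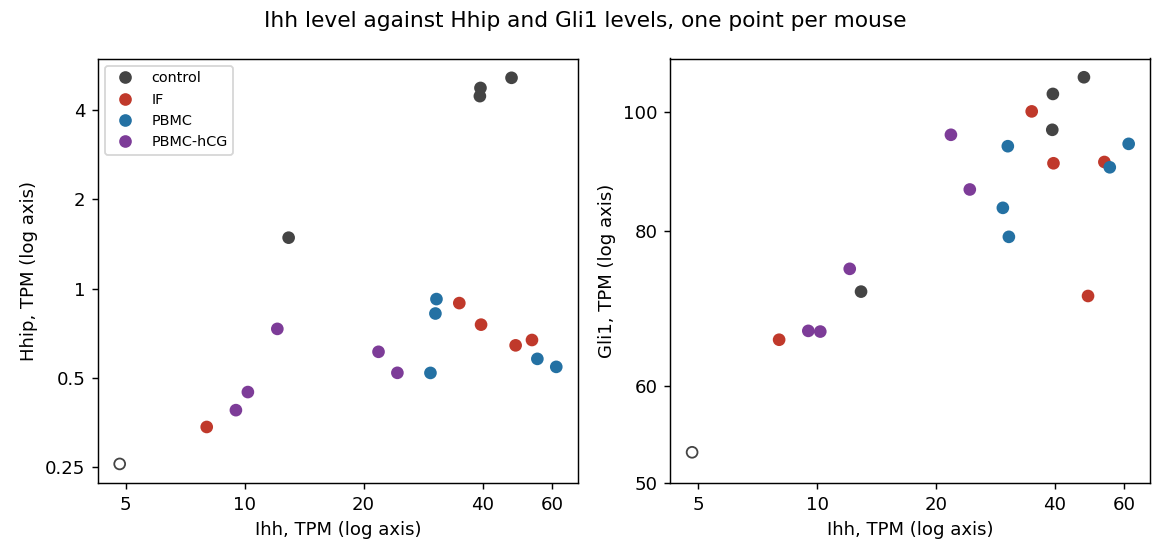
Hhip (left) and Gli1 (right) against Ihh, all in TPM on log axes, 1 point a mouse coloured by group; the open circle is control replicate 2. On the left, control replicates 1, 3 and 4 lie at 4.45 to 5.14 TPM of Hhip, while mice given RU486 with as much Ihh stay below 1 TPM.

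Gli1, a transcriptional activator and target of the pathway (chromosome 10, 127329882-127341579), did not differ between groups by the test. It was 107, 53.0, 96.7, 103 and 71.5 TPM in control and averaged 86.2 ± 23.2 TPM there, against 83.6 ± 14.8 in IF, 88.2 ± 6.58 in PBMC and 77.9 ± 12.9 in PBMC-hCG. The IF difference was -0.01 with an interval of -0.37 to 0.34 (limma adjusted p = 0.964). Neither PBMC nor PBMC-hCG against control was called, at 0.08 and -0.11. Against the stromal markers the Gli1 ratio differed from control in the 3 groups by -0.34, -0.34 and -0.51 (exact permutation p = 0.0476, 0.0476 and 0.0238), none passing adjustment over 30 tests (p = 0.143 for each).

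Gli2, the main activator among the Gli factors (chromosome 1, 118834061-119054405), had the smallest adjusted p of the 9 genes in IF and PBMC against control. It was 12.7, 11.3, 13.9, 14.1 and 11.3 TPM in control, 21.5, 20.4, 16.2, 20.5 and 18.1 in IF, 20.6, 20.6, 22.6, 17.3 and 22.5 in PBMC and 19.5, 16.1, 14.8, 15.8 and 16.9 in PBMC-hCG. Each mouse given RU486 exceeded each control mouse. Gli2 rose by 0.60 in IF (limma adjusted p = 0.000251), by 0.71 in PBMC (7.02e-05) and by 0.39 in PBMC-hCG (0.00636), with an SE of 0.10 in each. It was called in all 3 comparisons under each alternative that changes the fit and without each single mouse, though it did not reach a fold change of 2. Genes without overlap were 12.8% of all in IF, 12.7% in PBMC and 18.3% in PBMC-hCG against control. PBMC-hCG was -0.32 from PBMC (interval -0.53 to -0.11, limma adjusted p = 0.268), and -0.21 from IF (limma adjusted p = 0.133). Without IF replicate 3 the latter was -0.28, with an adjusted p of 0.0463.

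Gli3, which is processed to the main repressor form when the pathway is silent (chromosome 13, 15463723-15730026), went the other way in IF. Control mice had 9.998, 5.21, 8.69, 9.89 and 8.43 TPM and IF mice 6.58, 5.37, 5.60, 6.75 and 4.99 TPM. All IF mice lay below 4 of the 5 controls, and control replicate 2 lay among them. Gli3 fell in IF by 0.49 (SE 0.15, limma adjusted p = 0.0216), a call lost without control replicate 1 or 4 or IF replicate 5 and when only the 2 groups were fitted (adjusted p = 0.0979). PBMC (7.12 ± 0.620 TPM) and PBMC-hCG (7.498 ± 0.780 TPM) were -0.21 and -0.14 from control and were not called. Without control replicate 2, these were -0.37 and -0.30, with limma adjusted p of 0.0181 and 0.0354.

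**Figure D3:**
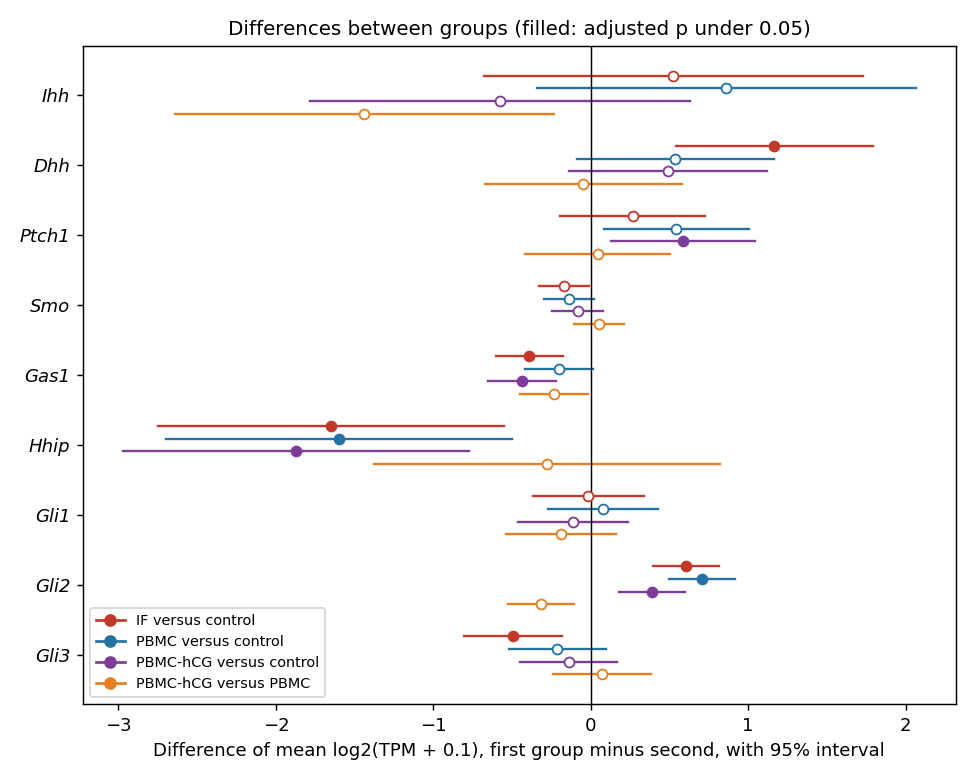
Difference in mean log2(TPM + 0.1) for each gene (horizontal axis), with its 95% interval, for 3 comparisons with control and for PBMC-hCG against PBMC; filled points have an adjusted p under 0.05. Gli2 lies to the right of 0 and Hhip to the left in all comparisons with control, and for Ihh the PBMC-hCG against PBMC interval runs from -2.64 to -0.23.

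The genes were next compared mouse by mouse, after the group means had been subtracted, over 20 mice and 11 pairs. Ihh and its target Gli1 varied together (Pearson r = 0.86, permutation adjusted p = 0.00258, and Spearman rho = 0.82, adjusted p = 0.00869). Without control replicate 2 and IF replicate 3, the 2 mice farthest out in Ihh, r was 0.74 (permutation p = 0.00892). Ihh and Gli2 gave r = 0.75 and rho = 0.74 (permutation adjusted p = 0.00258 and 0.00869), and r = 0.68 without those mice (p = 0.00490). Ptch1 and Gli1 gave r = 0.86 and rho = 0.78 (permutation adjusted p = 0.00462 and 0.0127), and r = 0.73 without them (p = 0.0247). Gli1 and Hhip gave r = 0.83 and rho = 0.76 (permutation adjusted p = 0.00436 and 0.0101), and r = 0.68 without them (p = 0.0286).

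Other pairs no longer reached an unadjusted p under 0.05 without those 2 mice, which does not show that they differ from the pairs above. Ihh with Ptch1 fell from r = 0.76 to 0.48 (permutation p = 0.180 without them), Ihh with Hhip from 0.78 to 0.57 (p = 0.156), Ihh with Dhh from 0.66 to 0.45 (p = 0.0530) and Ptch1 with Hhip from 0.86 to 0.69 (p = 0.0714). Their rho values over 20 mice were 0.65, 0.69, 0.49 and 0.75 (adjusted p = 0.0385, 0.0272, 0.0575 and 0.0174). Ihh with Smo (r = 0.55, rho = 0.48), Gli3 (0.53, 0.48) and Gas1 (0.29, 0.27) did not pass adjustment, with permutation adjusted p of 0.0752, 0.0949 and 0.160 for r. All values of a mouse come from 1 library, so that its cell make-up and TPM scaling are shared by both genes of a pair. The share of all genes that varied as closely with Ihh within groups was not computed, so these pairs have no background beside them. Over the levels of all 20 mice, the genes most like Ihh among 15770 with a mean of at least 1 TPM were Ms4a6d (r = 0.93), Acod1, Msn, Slc26a6 and Lrrc8b (0.92 to 0.91). Those most like Gli1 were Ensa, Fblim1, Rab4b (r = 0.90 each), Sdsl (0.88) and Cd248 (0.86).

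Of 9 other receptor-side genes, Boc was called against control in all 3 groups. Boc, a co-receptor that acts beside Gas1, averaged 26.9 TPM in control and 13.8, 14.2 and 16.6 TPM in IF, PBMC and PBMC-hCG. It was lower in each, with differences of -0.96, -0.93 and -0.69 and limma adjusted p of 2.36e-05, 4.06e-05 and 0.000454. The glypican Gpc3 rose in PBMC-hCG by 0.45 (limma adjusted p = 0.0304), and these were the list's only calls. Against control, 21.9%, 19.5% and 31.8% of all genes were called in IF, PBMC and PBMC-hCG.

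Among the 6 tested genes of ligand release, 3 were higher and 1 lower in IF, beside 21.9% of all genes called. Scube1, of a family that helps ligand leave the cell, rose by 0.75 in IF (59.97 against 35.8 TPM, limma adjusted p = 0.0241), and Disp2, of the Dispatched family, by 0.93 (2.40 against 1.38 TPM, 0.0434). Hhat, the enzyme that adds palmitate to the ligands, fell by 0.51 (4.05 against 5.91 TPM, limma adjusted p = 0.0245). In PBMC 1 gene was higher (Scube3) and 1 lower (Hhat), beside 19.5% of all genes called. PBMC-hCG had 1 higher (Scube3), beside 31.8% of all genes. Scube3, another member of the Scube family, was 0.307 to 0.663 TPM in control and 0.681 to 1.24 TPM in the 3 other groups, and it was named after its values had been seen.

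Of 21 genes of cytoplasmic transduction, 5 were higher and 3 lower in IF, 4 higher and 1 lower in PBMC, and 7 higher and 1 lower in PBMC-hCG, each against control. Over all genes, the share called was 21.9%, 19.5% and 31.8% in the same order. The 3 lower genes in IF belong to the complex at the cilium base that works with Smoothened: Evc differed by -0.57 (14.6 against 21.2 TPM, limma adjusted p = 0.0159), Evc2 by -0.56 (19.9 against 29.4 TPM, 0.000219) and Efcab7 by -0.71 (4.41 against 7.26 TPM, 0.00183). In PBMC-hCG against IF, 3 genes were called, all higher: Evc by 0.57 (limma adjusted p = 0.0343), Efcab7 by 0.53 (0.0344) and their partner Iqce by 0.49 (0.0325). That comparison called 13.6% of all genes. The 5 higher genes in IF were Grk2, Csnk1a1, Csnk1d, Cul3 and Dyrk2. Dyrk2, a kinase, rose against control by 0.66, 0.59 and 0.52 in IF, PBMC and PBMC-hCG (limma adjusted p = 0.000124, 0.000418 and 0.000970), and the kinase Stk36 by 0.46 in PBMC-hCG (0.0316). Sufu, which holds the Gli factors in the cytoplasm, averaged 22.4 to 26.5 TPM over the 4 groups and was not called.

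Of 13 genes of the primary cilium, 1, 2 and 8 were higher than control in IF, PBMC and PBMC-hCG, and none was lower. Among all 18706 genes tested, 2509, 2400 and 3772 were higher, and 21.9%, 19.5% and 31.8% were called in either direction. PBMC-hCG against IF also had 8 higher and none lower, with a median difference of 0.33 over the list and 0.05 over all genes. That comparison called 13.6% of all genes, 1423 higher and 1121 lower. Kif3a, a motor for transport into the cilium, rose by 0.40, 0.54 and 0.59 against control (limma adjusted p = 0.00620, 0.000699 and 0.000210). Ift88, a transport subunit, rose by 0.48 in PBMC-hCG against IF (14.7 against 10.7 TPM, limma adjusted p = 0.0259), Dync2h1, the return motor, by 0.47 (0.0429), and the transition zone genes Tmem67 by 0.43 (0.0459) and Rpgrip1l by 0.43 (0.0339). Ift52 rose by 0.42 in PBMC-hCG against control (limma adjusted p = 0.00608). Markers of other cells also moved in PBMC-hCG against IF, and their part was not tested. Of 4 mesothelial markers 3 were higher (Upk3b, Msln and Lrrn4, list median 0.69), with sums of 116 to 150 TPM in IF and 136 to 184 TPM in PBMC-hCG. Of 5 erythroid markers 2 were lower (Hba-a2 and Hbb-bs, list median -1.04), with sums of 640 to 1802 TPM in IF and 342 to 878 TPM in PBMC-hCG.

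Genes known as hedgehog targets in other tissues moved in both directions: of 11 tested, 3 were higher and 3 lower in IF, 2 higher and 1 lower in PBMC, and 4 higher and 2 lower in PBMC-hCG. These comparisons with control called 21.9%, 19.5% and 31.8% of all genes. Ccnd1, which drives cell cycle entry, was lower in each, with differences of -0.97, -0.87 and -1.63 (73.8 TPM in control, 36.2, 37.6 and 22.3 TPM in the others, limma adjusted p = 0.0221, 0.0429 and 0.000418). Wnt5a, a signalling ligand, rose by 0.75, 0.65 and 0.78 (58.0 TPM in control and 90.0 to 98.5 TPM in the others, limma adjusted p = 0.000171, 0.000744 and 0.000102). Foxc2, a transcription factor, rose by 0.91 in PBMC (0.000727) and Mycn by 1.37 in IF (0.0245). The rise of Foxc2 is given where it was largest. Its range was 0.502 to 0.862 TPM in control and 1.03 to 1.48 TPM in PBMC. In IF it was 0.741 to 1.48 TPM and in PBMC-hCG 0.897 to 1.20 TPM. Bmp4 and Osr1 rose in PBMC-hCG by 0.88 and 0.92 (limma adjusted p = 0.00402 and 0.00459). PBMC-hCG against IF called 1 gene of the list, the survival gene Bcl2, higher (16.9 against 12.3 TPM), beside 13.6% of all genes.

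In the uterine progesterone receptor and Ihh axis, 5 of 23 tested genes were higher and 6 lower in IF, 5 higher and 7 lower in PBMC, and 3 higher and 8 lower in PBMC-hCG, each against control. Calls over all genes came to 21.9%, 19.5% and 31.8% in the same order. Pgr, the receptor that RU486 binds, averaged 45.9 TPM in control and 150, 117 and 114 TPM in IF, PBMC and PBMC-hCG, and rose by 1.71, 1.34 and 1.29 (limma adjusted p = 1.44e-07, 2.56e-06 and 3.53e-06). Il13ra2, a decoy receptor, was lower in each, by differences of -4.20, -4.11 and -3.65, from 42.2 TPM in control (limma adjusted p = 2.84e-09, 4.27e-09 and 2.29e-08). Fkbp5, a target of glucocorticoid and progesterone receptors, was also lower in each (-1.81, -1.87 and -2.17, limma adjusted p = 1.34e-07, 8.70e-08 and 2.02e-08).

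Genes on the stromal side of Ihh differed from one another. Nr2f2 averaged 91.8, 70.5, 82.0 and 97.4 TPM in control, IF, PBMC and PBMC-hCG. It was not called against control, where the IF difference was -0.39 (limma adjusted p = 0.0575), and it rose by 0.47 in PBMC-hCG against IF (limma adjusted p = 0.0407). Hand2, which restrains stromal fibroblast growth factors, was 128 TPM in control and was lower in PBMC (83.4 TPM, -0.57) and PBMC-hCG (85.8 TPM, -0.52), with limma adjusted p of 0.0134 and 0.0147, and differed by -0.26 in IF (0.252). Fgf18, one of those factors, rose by 1.01, 1.47 and 1.51 (limma adjusted p = 0.00145, 5.25e-05 and 3.23e-05) from 0.744 TPM in control.

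Wnt4, a decidual signal, rose by 2.27 in IF and 2.21 in PBMC (limma adjusted p = 0.000641 and 0.000924) and fell by 1.39 in PBMC-hCG against IF (10.2 against 25.5 TPM, 0.0392). The PBMC-hCG mice, at 6.18 to 23.3 TPM of Wnt4, still lay mostly above the control range of 3.12 to 7.05 TPM. Follistatin, Fst, was lower than control in each group, with differences of -1.43, -1.44 and -2.82 (limma adjusted p = 0.0101, 0.0106 and 3.10e-05), and Fst fell by 1.39 in PBMC-hCG against IF (0.0324). Gata2, which works with the progesterone receptor, was 66.0 to 73.1 TPM in the 4 groups and was not called. In all, PBMC-hCG against IF called 2 genes of this axis higher (Nr2f2 and Hoxa10) and 3 lower (Wnt4, Fst and Fgf2), and PBMC against IF and PBMC-hCG against PBMC called none. The shares of all genes called were 13.6%, 0% and 0.0107%.

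**Figure D4:**
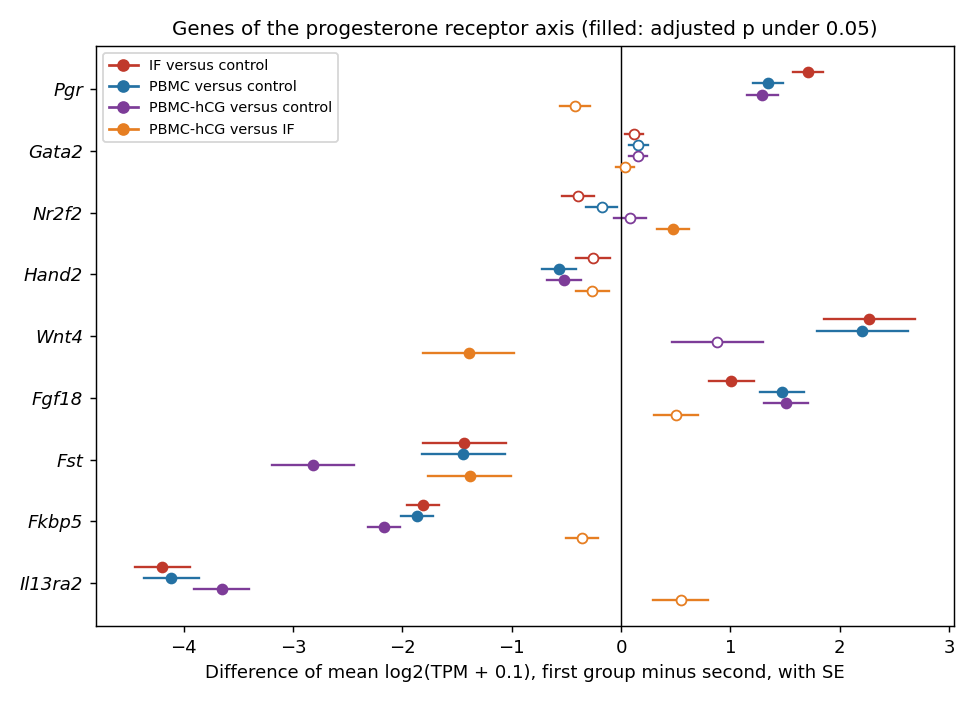
Difference in mean log2(TPM + 0.1) (horizontal axis) with its SE for 9 genes of the progesterone receptor and Ihh axis, in 3 comparisons with control and in PBMC-hCG against IF; filled points have an adjusted p under 0.05. Pgr and Fgf18 lie to the right of 0 in all 3 comparisons with control, Fst, Fkbp5 and Il13ra2 to the left, and Nr2f2 is filled in PBMC-hCG against IF alone.

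Markers of the cell types in the tissue also differed from control, and their part in the results above was not tested beyond the ratios given. For IF, PBMC and PBMC-hCG against control, 21.9%, 19.5% and 31.8% of all genes were called. Of 8 epithelial markers, 6, 5 and 4 were higher in IF, PBMC and PBMC-hCG and 1, the claudin Cldn3, was lower in each. Of 8 stromal markers 3, 4 and 4 were higher and none was lower. All 6 endothelial markers were higher in all 3 groups, with a sum of 366 to 492 TPM in control and 545 to 685 TPM in the others. Of 8 leukocyte markers 3, 1 and 4 were higher, with sums of 208 to 222 TPM in control and 228 to 311 TPM in the others. Of 8 smooth muscle markers 1 was lower in IF (Acta2), 0 in PBMC and 5 in PBMC-hCG, with sums of 6199 to 11464 TPM in control and 5037 to 6347 TPM in PBMC-hCG. Of 5 tested markers of oviduct and ovary, Ovgp1 alone was called, lower in all 3 groups. Against control 1 mesothelial marker was higher in PBMC (Wt1) and 2 in PBMC-hCG (Upk3b and Msln), and 1 erythroid marker was lower in PBMC-hCG (Hba-a2).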

How the data were processed

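Uterine polyA RNA was sequenced from 20 mice in 4 groups. The authors trimmed reads with Trimmomatic, aligned them to mm10 with HISAT2 and quantified genes with StringTie, per the labels, and deposited TPM values per gene and mouse. TPM hold no read depth, so limma (3.58.1, R 4.3.3) on log2(TPM + 0.1) took the place of a count test. Genes at 0 in any mouse were left out, the 4 groups were fitted together with a variance trend, and p was adjusted over 18706 genes. The 9 genes and all lists were chosen with earlier results of these data known. Named from each pathway list were at most 6 genes with a mean of at least 1 TPM and the largest differences among those called in any comparison, plus Shh, Sufu, Nr2f2, Hand2, Gata2, Pgr and the 5 genes most correlated with Ihh and with Gli1. Other names were added after their values were seen, and 1 further gene is not reported here. Two-sided exact tests enumerated 252 arrangements, and correlations used 100000 permutations within groups. Alternatives were other pseudocounts, filters and scalings, fits without the trend or robust, fits of 2 groups, a replicate block and leaving out each mouse. The fit was tested on simulated data.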

Additional observations from a re-analysis of the deposited data

Results flagged for a closer look

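In 36 groups of 5 mice (9 genes in 4 groups), 3 held a mouse far from the other 4 by Dixon's criterion (a gap of more than 0.71 of the group's range), and chance flags about 1 group in 20. Dhh was 5.42 TPM in IF replicate 5, with the next mouse at 3.32 TPM. Dhh was also 3.31 TPM in PBMC-hCG replicate 1, with the next at 1.94 TPM. Smo was 64.2 TPM in control replicate 2, with the next lowest control at 78.8 TPM.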

How the results depend on the processing

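Gli2 against control in all 3 groups, Dhh in IF and Gas1 in IF and PBMC-hCG were called under each alternative fit. The number of the 9 genes called moved elsewhere, and the cause was not tested. PBMC against control had 1 instead of 2 with a pseudocount of 0.01 or with no filter. With no filter IF also had 4 (Hhip lost) and PBMC-hCG 3 (Ptch1 lost), and PBMC-hCG had 3, again without Ptch1, under median ratio scaling and without the variance trend. With only the 2 compared groups in the fit, IF, PBMC and PBMC-hCG against control had 3, 1 and 2. Under the fold change criterion they had 2 (Dhh and Hhip), 1 (Hhip) and 1 (Hhip), and PBMC-hCG against PBMC had 1 (Ihh). Leaving out 1 mouse gave 3 to 6 for IF against control (3 without control replicate 1 or 4 or IF replicate 5), 1 to 4 for PBMC against control (4, Gli2, Gli3, Hhip and Smo, without control replicate 2), and 0 to 2 for PBMC-hCG against IF (2, Ihh and Gli2, without IF replicate 3). Smo in IF was called after quantile normalization and median ratio scaling (adjusted p = 0.0232 and 0.0381). With a pseudocount of 1, 4 ratios passed adjustment: Ihh to epithelial markers in PBMC-hCG against PBMC (-1.43) and Hhip to stromal markers in IF, PBMC and PBMC-hCG against control (-1.45, -1.52 and -1.62). The 3 Hhip ratios also passed without control replicate 2, and ranged over the mice left out from -2.48 to -1.72, -2.52 to -1.76 and -2.78 to -2.01. Correlations of same-numbered mice were mixed (r from -0.247 to 0.457, over 0.1 in 3 of 5 pairs for IF and control and in 0 to 2 of 5 in the other comparisons), and since not every pair passed 0.1 the numbers were not taken as pairs. With a replicate block IF, PBMC and PBMC-hCG against control had 5, 2 and 3 calls, Ptch1 being lost in the last. Read depth is unknown, so the counting error of low genes such as Hhip and Dhh could not be estimated.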

Other observations

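Areg, an epithelial progesterone receptor target, could not be tested because it was listed at 0 TPM in some mice. It ran from 0 to 17.2 TPM in control, 0 to 34.2 TPM in IF, 1.01 to 25.8 TPM in PBMC and 0 to 1.75 TPM in PBMC-hCG. The PBMC-hCG mice thus stayed at the low end, and any relation of Areg to Ihh was not tested. Hoxa10 and Hoxa11, homeobox genes of the progesterone response, were lower than control in all 3 groups given RU486. Hoxa11 was 194 to 229 TPM in control, and no mouse given RU486 passed 136 TPM. Cyp26a1, which degrades retinoic acid, was higher in these groups, at 213 to 299 TPM against 89.0 to 173 TPM in control. Genes without overlap with control were 12.8% of all in IF, 12.7% in PBMC and 18.3% in PBMC-hCG.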
